A study of Rattus norvegicus with 20 samples.

Results

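The 10 genes described here, Cdkn1a, Mdm2, Ccng1, Bax, Phlda3, Sesn1, Sesn2, Aen, Trp53inp1 and Btg2, are targets of the transcription factor p53. They were chosen by symbol from the 32495 named genes of the count table, in which Trp53inp1 is spelled Tp53inp1. All 10 were among the 11716 genes with enough counts to be tested. RNA was sequenced from the gastrocnemius, a mixed muscle of the calf, of female Fischer 344 rats that all carried the Ward colorectal carcinoma, so no group was free of tumour. TUMOUR STD (5 libraries) received no chemotherapy and a standard diet. CHEMO STD (7 libraries) received 2 cycles of irinotecan (CPT-11) followed by 5-fluorouracil on the standard diet, and CHEMO FO (8 libraries) received the same drugs with a change to a diet containing fish oil, a source of EPA and DHA, on the first day of chemotherapy. The muscle was taken 7 days after the last dose. The question put to the members was whether the p53 response to these DNA-damaging drugs was still visible in muscle RNA at that time, and whether it differed with the diet.

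p53 is held at a low level by the ubiquitin ligase Mdm2, is stabilised when DNA is damaged, and then binds response elements near its target genes. The targets include inhibitors of the cell cycle (Cdkn1a, Ccng1, Btg2), the feedback inhibitor Mdm2 itself, genes of the cell death programme (Bax, Phlda3, Aen, Trp53inp1) and the sestrins (Sesn1, Sesn2), which restrain the growth kinase complex mTORC1. Fluorouracil and irinotecan both activate p53 in dividing cells, and several of the targets also answer to other factors. Cdkn1a and Sesn1, for example, are known targets of the FOXO factors, which drive the atrophy programme of skeletal muscle.

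Libraries that stood apart are given first because results rest on them. CHEMO STD replicates 1 and 2 differed by a chi-square of 2.23 per gene, against 13.7 to 255 in 58 other pairs of libraries within groups, and they were summed and counted as 1 sample, CHEMO STD 1+2, which leaves 19 samples. CHEMO FO 18 had a median Spearman correlation with its own group of 0.909, where the other 18 samples lay between 0.942 and 0.975. It also had the lowest summed level of the 7 muscle fibre markers in the table, 120183 CPM (CPM, each gene's count scaled to the TMM-adjusted size of its library) against 169089 to 234416 CPM in the others, and the highest of the 9 macrophage markers, 742 CPM against 182 to 440 CPM. All 7 listed keratinocyte markers had counts in TUMOUR STD 10 and CHEMO FO 16 alone, with sums of 480 and 106 CPM, and Krt14 and Lor were at 0 in the other 17 samples, whose sums were 2.45 to 8.07 CPM. Leukocyte markers summed to 114 CPM in CHEMO STD 7 and to 12.9 to 32.4 CPM elsewhere. Library totals on genes were 3020821 to 10857477 counts. In bulk muscle, fewer cells of a type and less RNA per cell cannot be told apart.

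Promoter sequences were available for 8 of the 10 members (RefSeq, GRCr8, from 250 bases before to 50 bases after the annotated start). The p53 half-site, a consensus of 10 bases searched on both strands with no mismatch, was found in 4 of these 8 windows and in 7.98% of 33465 promoter windows of the same length. The half-site of Cdkn1a (GAACATGTCT, bases -201 to -192 from the start) and that of Aen (GGGCATGTCC, -30 to -21) have the CATG centre, which 2.28% of all promoter windows hold. Those of Ccng1 (GGGCAAGCCT, -232 to -223) and Sesn1 (AAGCTTGTTT, -172 to -163) do not. No member had the full site, a pair of half-sites without mismatch at most 13 bases apart, which 0.0598% of promoter windows hold. This search misses a pair in which a half-site has a mismatch. In Cdkn1a the half-site is followed directly by tgacttgttc, and in Ccng1 it is preceded directly by agacctgccc. Each of these runs of 10 bases differs from the consensus at 1 base. How many of all promoter windows hold such a pair with a mismatch was not computed. The 4 windows are printed 5′ to 3′ because they show which members carry a half-site without mismatch next to the start. Capitals mark that half-site. They lie at chr20:7150682-7150981 (Cdkn1a, plus strand), chr10:25684827-25685126 (Ccng1, minus strand), chr20:46948469-46948768 (Sesn1, plus strand) and chr1:142224283-142224582 (Aen, plus strand). A match describes the letters only, and these coordinates are of a later build than the Rnor 6 genome used for the counts.
Cdkn1a: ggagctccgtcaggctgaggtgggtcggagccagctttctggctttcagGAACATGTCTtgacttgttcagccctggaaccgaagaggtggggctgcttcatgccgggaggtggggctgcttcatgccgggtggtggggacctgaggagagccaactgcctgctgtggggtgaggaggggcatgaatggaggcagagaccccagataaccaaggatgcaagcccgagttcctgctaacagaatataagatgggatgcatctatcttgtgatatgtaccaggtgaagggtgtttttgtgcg
Ccng1: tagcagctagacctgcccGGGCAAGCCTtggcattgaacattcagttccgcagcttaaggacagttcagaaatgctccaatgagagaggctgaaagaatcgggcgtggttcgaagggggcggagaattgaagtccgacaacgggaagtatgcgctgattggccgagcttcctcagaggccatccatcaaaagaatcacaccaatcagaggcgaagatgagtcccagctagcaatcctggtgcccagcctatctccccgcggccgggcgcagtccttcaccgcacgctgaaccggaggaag
Sesn1: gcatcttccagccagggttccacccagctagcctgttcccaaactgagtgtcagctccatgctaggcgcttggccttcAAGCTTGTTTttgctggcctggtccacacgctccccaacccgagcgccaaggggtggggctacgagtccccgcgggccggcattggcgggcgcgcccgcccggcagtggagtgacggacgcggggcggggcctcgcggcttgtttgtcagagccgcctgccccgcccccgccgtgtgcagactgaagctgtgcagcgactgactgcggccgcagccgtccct
Aen: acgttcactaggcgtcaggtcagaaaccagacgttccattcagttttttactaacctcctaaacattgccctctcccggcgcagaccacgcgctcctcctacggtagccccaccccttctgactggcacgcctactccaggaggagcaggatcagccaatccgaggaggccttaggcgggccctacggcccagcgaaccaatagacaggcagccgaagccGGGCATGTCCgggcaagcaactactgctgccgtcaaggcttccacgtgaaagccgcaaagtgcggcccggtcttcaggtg

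In muscle taken 7 days after chemotherapy, none of the p53 targets passed the thresholds against muscle of rats without chemotherapy on the same diet. A gene was called when edgeR's quasi-likelihood test gave p under 0.05 before adjustment and the groups differed at least 1.5-fold. In CHEMO STD against TUMOUR STD, 0 of the 10 members were called, beside 2.38% of all genes tested. By direction, 5 members were higher and 5 lower, with a median log2 fold change of -0.02 beside -0.00 for all genes tested. In CHEMO FO against CHEMO STD, 2 members were called, Cdkn1a and Trp53inp1, both higher, with 1.66% of all genes called. In CHEMO FO against TUMOUR STD, 1 member was called, Cdkn1a, with 3.6% of all genes called. Each of these calls was lost when CHEMO FO 18 was left out, and 0 of 10 members were then called in either comparison. The 3 comparisons share groups, so their values for a member are not independent of each other.

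With Benjamini-Hochberg adjustment over all genes tested, edgeR's test left 0 of 11716 genes (0%) with adjusted p below 0.05 in each comparison. Before adjustment, 762, 528 and 1059 genes had p below 0.05 in CHEMO STD against TUMOUR STD, CHEMO FO against CHEMO STD and CHEMO FO against TUMOUR STD. Without any difference between groups, a share of 0.05 of the genes tested is expected there. The 528 genes are fewer than that share, and the 762 and 1059 are more. DESeq2 gave 11 genes with adjusted p below 0.05 in CHEMO FO against TUMOUR STD, none of them a member, and 0 in the other comparisons. Of the 30 exact permutation tests on single members, 2 gave p below 0.05, for Sesn1 and Phlda3, and neither gene was called. These p-values were not adjusted for the 30 tests, which share groups, and the same share over all genes was not computed.

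**Figure D1:**
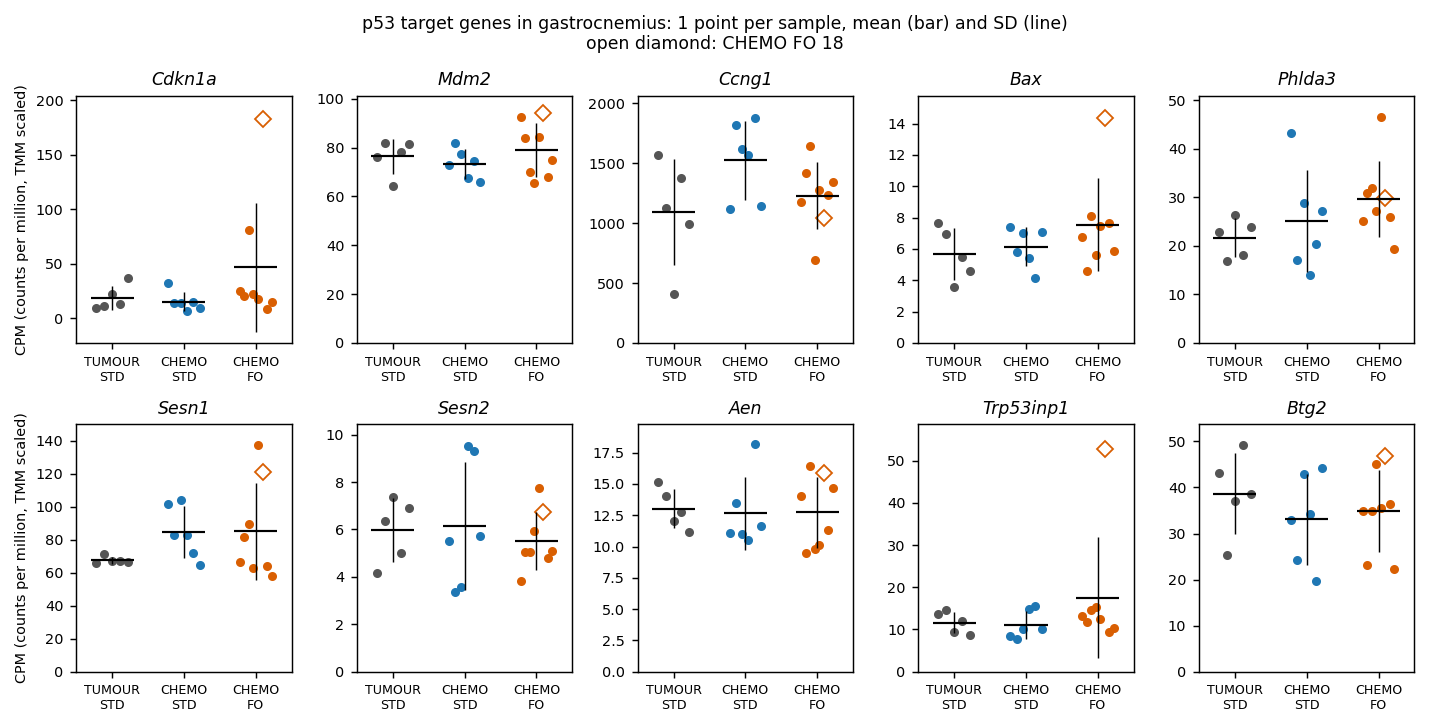
Level of each of the 10 p53 target genes in CPM (y axis, including 0) in every sample of TUMOUR STD (5), CHEMO STD (6) and CHEMO FO (8), with the group mean as a bar and the SD as a vertical line. The open diamond is CHEMO FO 18, which is far above all other samples for Cdkn1a (183 CPM) and Trp53inp1 (52.8 CPM), while Mdm2 lies between 64.4 and 94.1 CPM in all 19 samples.

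Cdkn1a encodes p21, which stops the cell cycle by inhibiting cyclin-dependent kinases and is the classic readout of p53. In TUMOUR STD it was at 9.556, 10.84, 21.95, 13.27 and 36.55 CPM in samples 8 to 12. CHEMO STD ranged from 6.99 to 32.3 CPM with a median of 14.2 CPM, and CHEMO FO from 8.64 to 183 CPM with a median of 21.2 CPM. The groups overlapped in every comparison, and 2 of 8 CHEMO FO samples, 15 at 80.7 CPM and 18 at 183 CPM, were above every sample of the other groups. Chemotherapy on the standard diet left Cdkn1a at a log2 fold change of -0.20 (SE 0.623). The 95% interval ran from 0.356-fold to 2.13-fold, so that a difference of 2-fold in either direction was not excluded. The log2 fold change was -0.59 without CHEMO STD 1+2 and 0.19 without TUMOUR STD 12, the highest samples of the 2 groups.

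CHEMO FO had 2.97-fold more Cdkn1a than CHEMO STD (log2 fold change 1.57, SE 0.568, edgeR p = 0.0111, adjusted p = 0.974, exact permutation p = 0.134) and 2.59-fold more than TUMOUR STD (1.37, SE 0.598, edgeR p = 0.0316, adjusted p = 0.525, exact permutation p = 0.290). The exact permutation test concerns the difference of mean log2 CPM, which was smaller, at 1.04 and 0.79. Without CHEMO FO 18 the log2 fold changes were 0.74 (p = 0.0965) and 0.56 (p = 0.222), and the exact permutation p was 0.210 and 0.479. The call against TUMOUR STD was also lost without TUMOUR STD 8, 9 or 11 or CHEMO FO 15, at log2 fold changes of 1.22 to 1.28. In CHEMO STD, the highest sample was CHEMO STD 1+2 at 32.3 CPM, and the comparison with CHEMO FO gave 1.97 when that sample was left out. Cdkn1a varied more within groups than nearly any gene: its within-group SD of log2 CPM was 1.09, larger than that of 99.2% of the genes tested, and 0.848 (larger than 97.2%) without CHEMO FO 18.

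Ccng1 encodes cyclin G1, a p53 target that acts with protein phosphatase 2A on Mdm2. It was counted at 1566, 1124, 408.5, 1378 and 989 CPM in TUMOUR STD 8 to 12. CHEMO STD ranged from 1115 to 1874 CPM (median 1596) and CHEMO FO from 690 to 1647 CPM (median 1254). Of 6 CHEMO STD samples, 4 were above every TUMOUR STD sample. The log2 fold change of CHEMO STD against TUMOUR STD was 0.48 (SE 0.252, edgeR p = 0.0705, adjusted p = 0.719, exact permutation p = 0.0887) and did not pass the test. The 2 samples with the lowest Ccng1, TUMOUR STD 10 and CHEMO FO 16, were also those in which all keratinocyte markers had counts, and the part of this in the result was not tested. Without TUMOUR STD 10 the value was 0.27, and without TUMOUR STD 8 it was 0.65 and was called. CHEMO FO lay between the other groups, at -0.31 (exact permutation p = 0.120) against CHEMO STD and 0.17 (exact permutation p = 0.460) against TUMOUR STD, and the second value was -0.04 without TUMOUR STD 10.

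Btg2 encodes an antiproliferative partner of the mRNA deadenylase complex, and as an immediate early gene it also answers to growth factors and stress. Its levels were 43.1, 25.3, 37.1, 49.2 and 38.5 CPM in TUMOUR STD 8 to 12, 19.7 to 44.3 CPM (median 33.7) in CHEMO STD and 22.2 to 46.8 CPM (median 35.2) in CHEMO FO. The groups overlapped throughout. The log2 fold changes were -0.21 (SE 0.219) in CHEMO STD against TUMOUR STD, 0.07 (SE 0.198) in CHEMO FO against CHEMO STD and -0.15 (SE 0.206) in CHEMO FO against TUMOUR STD.

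Mdm2, the ubiquitin ligase that p53 induces and that in turn removes p53, was the steadiest member. TUMOUR STD had 76.1, 82.0, 64.4, 78.3 and 81.4 CPM in samples 8 to 12, CHEMO STD 65.7 to 82.0 CPM (median 73.7) and CHEMO FO 65.6 to 94.1 CPM (median 79.5). Its within-group SD of 0.165 on the log2 scale was larger than that of only 3.98% of the genes tested. In CHEMO STD against TUMOUR STD the log2 fold change was -0.06 with a 95% interval of -0.30 to 0.19, that is, a ratio between 0.809 and 1.14. The intervals in the other comparisons were -0.11 to 0.33 and -0.18 to 0.28. For Mdm2 a difference of 1.5-fold was therefore outside the 95% interval in all 3 comparisons, and the same held for Aen. In CHEMO STD against TUMOUR STD it held for 3 of 10 members (Mdm2, Sesn2 and Aen) and for 43% of all genes tested.

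**Figure D2:**
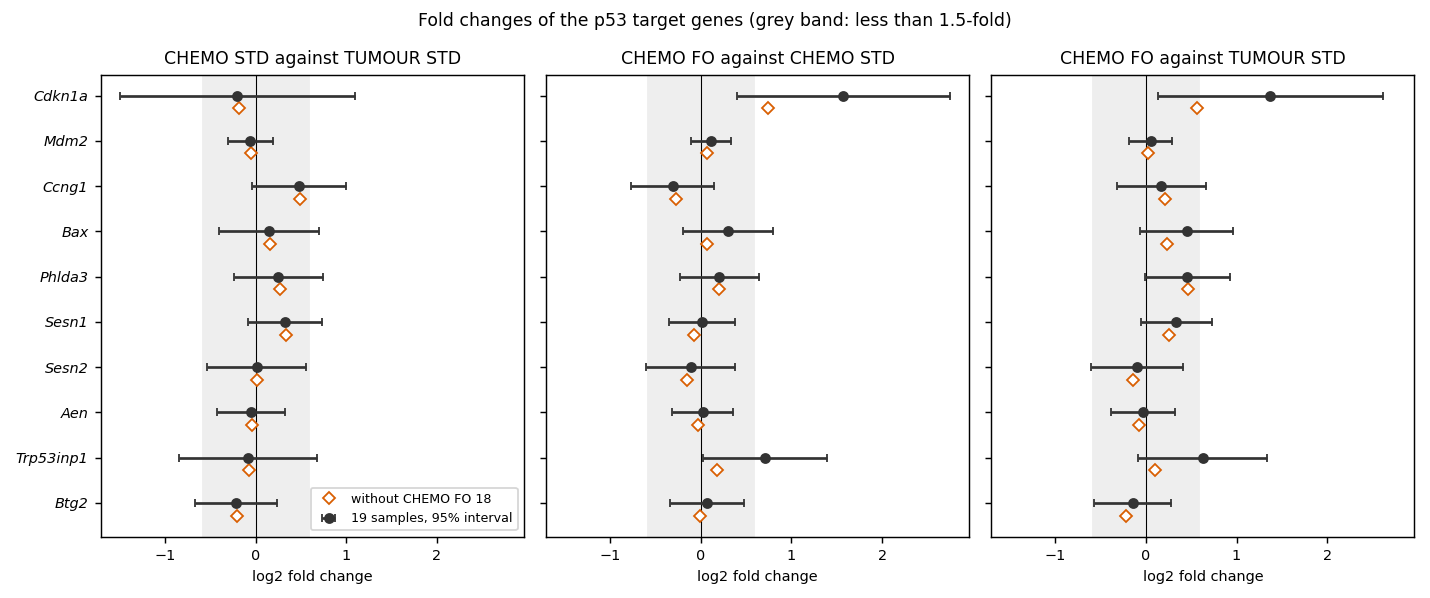
Log2 fold change (x axis) of each member in the 3 comparisons, with the 95% interval from edgeR's quasi-likelihood fit of 19 samples (filled points) and the value without CHEMO FO 18 (open diamonds), the grey band marking changes under 1.5-fold. In the 2 comparisons of CHEMO FO, Cdkn1a falls from 1.57 to 0.74 and from 1.37 to 0.56 and Trp53inp1 from 0.71 to 0.18 and from 0.63 to 0.10 when that sample is left out, while the Mdm2 points of all 19 samples lie between -0.06 and 0.11.

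Of the cell death genes, Trp53inp1, which encodes a stress protein that supports p53 activity and autophagy, was the second member called. TUMOUR STD had 13.6, 14.6, 9.33, 12.0 and 8.69 CPM in samples 8 to 12. CHEMO STD ranged from 7.65 to 15.5 CPM (median 10.2). In CHEMO FO, 7 of 8 samples lay between 9.36 and 15.4 CPM, inside the range of the other groups, and CHEMO FO 18 was at 52.8 CPM. The log2 fold change of CHEMO FO against CHEMO STD was 0.71 (SE 0.330, edgeR p = 0.0428, adjusted p = 0.974), with an exact permutation p of 0.221. Without CHEMO FO 18 it was 0.18 (SE 0.185, exact permutation p = 0.312), and the call was also lost without CHEMO STD 1+2, 3, 4 or 7, at 0.63 to 0.69. Against TUMOUR STD the values were 0.63 (exact permutation p = 0.406) with that sample and 0.10 (exact permutation p = 0.513) without it, and CHEMO STD differed from TUMOUR STD by -0.08 (SE 0.366). The first of these was called without CHEMO FO 19 or 20, at 0.72 each.

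Bax, which perforates the outer mitochondrial membrane, was low in all groups. It had 7.64, 6.96, 3.59, 5.50 and 4.61 CPM in TUMOUR STD 8 to 12, 4.14 to 7.42 CPM (median 6.43) in CHEMO STD and 4.62 to 14.4 CPM (median 7.10) in CHEMO FO, where CHEMO FO 18 was again the highest and the next sample had 8.09 CPM. The groups overlapped. The counts behind these values were 16 to 158 per sample, so that counting error adds to the spread. The log2 fold change was 0.15 (SE 0.265) for CHEMO STD against TUMOUR STD, 0.30 (SE 0.237) for CHEMO FO against CHEMO STD and 0.45 (SE 0.249, exact permutation p = 0.181) for CHEMO FO against TUMOUR STD. The last was 0.24 (exact permutation p = 0.266) without CHEMO FO 18 and 0.59, and called, without TUMOUR STD 8.

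Phlda3 encodes a small lipid-binding protein that keeps the survival kinase Akt from the membrane. Its levels were 22.9, 16.9, 26.4, 18.1 and 23.8 CPM in TUMOUR STD 8 to 12, 13.99 to 43.3 CPM (median 23.7) in CHEMO STD and 19.4 to 46.4 CPM (median 28.5) in CHEMO FO. Of 8 CHEMO FO samples, 5 were above every TUMOUR STD sample and none was below all of them. CHEMO FO against TUMOUR STD had a log2 fold change of 0.46 (SE 0.226, p = 0.0558, adjusted p = 0.554), under the fold threshold, with an exact permutation p of 0.0404. CHEMO FO 18 (29.8 CPM) was unremarkable for this gene, and the value without it was 0.47 (p = 0.0571), with an exact permutation p of 0.0581. Without CHEMO FO 17, the highest CHEMO FO sample, the value was 0.34. CHEMO FO against CHEMO STD was 0.21 (SE 0.212), and ran from 0.09 (without CHEMO FO 17) to 0.45 (without CHEMO STD 1+2) with 1 sample left out. CHEMO STD against TUMOUR STD was 0.25 (SE 0.237) and fell to 0.02 without CHEMO STD 1+2, its highest sample.

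Aen encodes an exonuclease that takes part in apoptotic DNA breakdown. It had 15.12, 14.02, 12.0, 12.78 and 11.18 CPM in TUMOUR STD 8 to 12, 10.5 to 18.2 CPM (median 11.3) in CHEMO STD and 9.46 to 16.4 CPM (median 12.7) in CHEMO FO. The 3 groups overlapped over most of their ranges. Its log2 fold changes were -0.05 (SE 0.180), 0.02 (SE 0.164) and -0.03 (SE 0.170) in CHEMO STD against TUMOUR STD, CHEMO FO against CHEMO STD and CHEMO FO against TUMOUR STD.

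The sestrins inhibit mTORC1 in response to stress and low leucine, and Sesn1 is the member best known in muscle. Sesn1 was at 66.0, 71.3, 67.4, 67.0 and 66.4 CPM in TUMOUR STD 8 to 12, a CV of 3.16%. CHEMO STD ranged from 64.7 to 103.9 CPM (median 82.8, CV 18.5%) and CHEMO FO from 58.0 to 137 CPM (median 74.1, CV 34.6%). Of 6 CHEMO STD samples, 5 were above every TUMOUR STD sample and 1 was below all of them. In CHEMO FO 4 of 8 were above and 3 below. The log2 fold change of CHEMO STD against TUMOUR STD was 0.33 (SE 0.197, p = 0.112, adjusted p = 0.719), and the exact permutation p was 0.0411. That of CHEMO FO against TUMOUR STD was 0.34 (SE 0.187, p = 0.0843) with an exact permutation p of 0.251, and CHEMO FO against CHEMO STD was 0.01 (SE 0.176). Neither comparison with TUMOUR STD reached the fold threshold.

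Sesn2, which answers to amino acid and endoplasmic reticulum stress as well as to p53, was scarce in this muscle. It had 4.17, 6.37, 7.38, 5.02 and 6.92 CPM in TUMOUR STD 8 to 12, 3.37 to 9.54 CPM (median 5.603) in CHEMO STD and 3.81 to 7.74 CPM (median 5.07) in CHEMO FO, from 11 to 109 counts per sample. The CHEMO STD samples spread on both sides of the others, with 2 of 6 above and 2 below every TUMOUR STD sample. The log2 fold changes were 0.01 (SE 0.263), -0.11 (SE 0.239) and -0.10 (SE 0.245) in CHEMO STD against TUMOUR STD, CHEMO FO against CHEMO STD and CHEMO FO against TUMOUR STD.

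Some members were far above the rest of their group in CHEMO FO 18 and others were not. That sample was the highest of the 8 CHEMO FO samples for 5 of 10 members (Cdkn1a, Mdm2, Bax, Trp53inp1 and Btg2), and for 26.7% of all genes tested. Cdkn1a was 8.95-fold, Trp53inp1 4.22-fold and Bax 2.13-fold over the median of the other 7 samples, which makes 3 of 10 members at least 2-fold over, beside 7.84% of all genes tested. Mdm2 was 1.26-fold over that median, Phlda3 1.09-fold and Ccng1 0.820-fold. These are values of 1 sample, for which no test was made.

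The members were next compared from sample to sample after the group means had been subtracted from log2 CPM. None of the 9 members followed Cdkn1a past an adjusted p of 0.05 over the 19 samples. The highest values were those of Sesn1 (Pearson's r = 0.49, permutation p = 0.0901, adjusted 0.337, and Spearman's rho = 0.45, permutation p = 0.0812, adjusted 0.396) and Trp53inp1 (r = 0.49, permutation p = 0.112, adjusted 0.337, and rho = 0.12, permutation p = 0.648, adjusted 0.954). With the 2 samples farthest from the median of Cdkn1a left out (CHEMO FO 18 and CHEMO FO 15), r was 0.22 for Sesn1 and -0.37 for Trp53inp1, so that the second value rests on those samples. For Phlda3, r was 0.37 in all samples (permutation p = 0.105, adjusted 0.337) and 0.52 without those 2 (permutation p = 0.0418, unadjusted), with rho = 0.41 (permutation p = 0.0881, adjusted 0.396). For the other 6 members r lay between -0.18 and 0.36.

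The genes whose log2 CPM was most like that of Cdkn1a over the 19 samples were Glul, glutamine synthetase (r = 0.913), Bcl2l1, which encodes the survival factor Bcl-xL (r = 0.899), and Mt2A, a metallothionein (r = 0.863). With group means subtracted they were Bcl2l1 (r = 0.900), Glul (r = 0.898) and Pcnx1 (r = 0.854). All of these were highest in CHEMO FO 18, where Glul was at 2089 CPM and Bcl2l1 at 50.3 CPM, against group medians of 459 to 787 CPM and 13.6 to 20.2 CPM. Without that sample the nearest were Glul (r = 0.865), Glt8d2 (r = 0.860) and Nelfb (r = 0.835) over 18 samples, so that Glul alone was among the first 3 each time. None of them was one of the 10 members, but Bcl2l1 stood in the list of other p53 targets of apoptosis and Mt2A in the FOXO and glucocorticoid list.

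A relation of the members to a list of 16 FOXO and glucocorticoid response genes was examined after the data had been seen. The mean log2 CPM of its 15 tested genes, with group means subtracted, rose with Sesn1 (r = 0.80, permutation p = 0.00129, adjusted over the 10 members 0.00645, and rho = 0.83, permutation p = 0.00049, adjusted 0.0049) and with Cdkn1a (r = 0.80, permutation p = 0.00098, adjusted 0.00645, and rho = 0.66, permutation p = 0.00457, adjusted 0.0152). Without the 2 samples whose list mean, after the same subtraction, lay farthest from the median of the 19 samples (CHEMO FO 18 and CHEMO STD 1+2), r was 0.78 for Sesn1 (permutation p = 0.00199) and 0.52 for Cdkn1a (permutation p = 0.0551), so that the Cdkn1a relation rests in part on those samples. For Phlda3, r was 0.55 (permutation p = 0.0185, adjusted 0.0616) and rho 0.70 (permutation p = 0.00104, adjusted 0.0052), and r was 0.76 without those 2 samples (permutation p = 0.00076). Mdm2 gave r = 0.33 (permutation p = 0.294, adjusted 0.368) in all samples and 0.01 without them. Its within-group SD was larger than that of only 3.98% of the genes tested, so it had little variation to relate to the list. How many of all genes tested follow the list as closely as these members was not computed. For the other 6 members r lay between -0.18 and 0.63, with adjusted p of 0.0686 or more. The samples share their library and depth across both measures. CHEMO FO 17 was kept when CHEMO FO 18 and CHEMO STD 1+2 were left out. It then had the highest list mean of the CHEMO FO samples (5.94), and the highest Sesn1 (137 CPM) and Phlda3 (46.4 CPM) of that group. The part of CHEMO FO 17 in these relations was not tested.

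**Figure D3:**
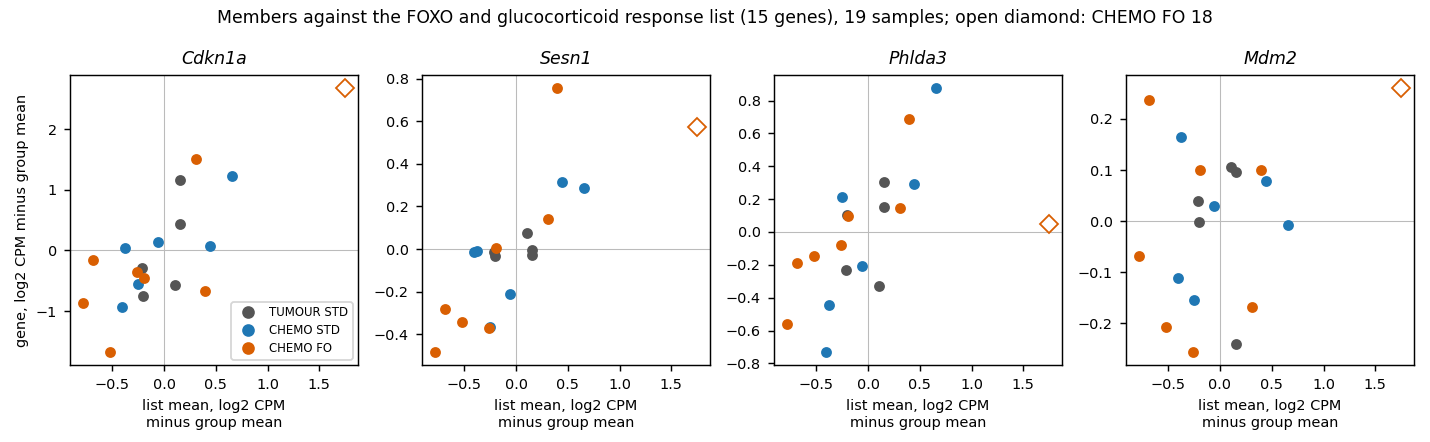
Log2 CPM of Cdkn1a, Sesn1, Phlda3 and Mdm2 (y axis) against the mean log2 CPM of 15 FOXO and glucocorticoid response genes (x axis), each minus its group mean, in 19 samples coloured by group. CHEMO FO 18 (open diamond) lies farthest to the right. Sesn1 and Cdkn1a have r = 0.80, and Mdm2 has r = 0.33.

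The other genes of the p53 pathway gave few calls. Of the 12 tested genes of the upstream list, which holds DNA damage kinases and regulators of p53 stability, none was called in any comparison. Tp53bp1, a DNA damage adaptor, was at -0.37 (SE 0.163) and the ubiquitin ligase gene Cop1 at 0.35 (SE 0.180) in CHEMO STD against TUMOUR STD.

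Other p53 targets were held in 4 further lists, and none of their tested genes was called in CHEMO STD against TUMOUR STD. The apoptosis list (9 tested) and the list of DNA repair and nucleotide supply (9 tested) had no call in any comparison, with medians between 0.02 and 0.16 on the log2 scale. Eda2r encodes a receptor of the tumour necrosis factor receptor family known for its part in muscle atrophy. It was at -0.58 (SE 0.397) in CHEMO STD against TUMOUR STD, with the smallest p of its list. In CHEMO FO against CHEMO STD it was at 0.68 (SE 0.363) and not called, and CHEMO FO 18 had 30.3 CPM against a CHEMO FO median of 8.23 CPM. In the DNA repair list, Polk, a translesion DNA polymerase, had the smallest p, at -0.49 (SE 0.265, adjusted p = 0.719), and Rrm2b, the p53-inducible subunit of ribonucleotide reductase, was at 0.28 (SE 0.221). Of the 5 tested genes of cell cycle and feedback, Gadd45a, a stress sensor that p53 and ATF4 both induce, was called higher in CHEMO FO against TUMOUR STD (1.29, SE 0.527, adjusted p = 0.516). It was highest in the same sample as Cdkn1a, since CHEMO FO 18 had 77.4 CPM of Gadd45a against a CHEMO FO median of 8.99 CPM, and the list had no call without that sample.

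Genes of cell division, which p53 lowers through p21, were mostly too low to test in this muscle, with 5 of 16 listed genes tested and none called. Top2a, the DNA topoisomerase of dividing cells, had group means of 1.204 (TUMOUR STD), 2.13 (CHEMO STD) and 1.49 CPM (CHEMO FO), with SDs of 0.684, 0.857 and 1.31 CPM. Of the ATF4 response, a second stress pathway that reaches Sesn2 and Trp53inp1, 7 genes were tested and none was called. Psat1, an enzyme of serine synthesis, had the smallest p of that list in CHEMO STD against TUMOUR STD, at -0.91 (SE 0.440, adjusted p = 0.719).

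Both remaining lists held calls. In the FOXO and glucocorticoid list 15 of 15 tested genes were higher in CHEMO FO than in CHEMO STD, with 4 called (Foxo1, Fbxo32, Trim63 and Mt2A) and a median of 0.50, and 15 of 15 were higher than in TUMOUR STD, with 7 called (Tsc22d3, Fbxo32, Trim63, Pdk4, Cebpd, Zbtb16 and Mt2A) and a median of 0.74. Without CHEMO FO 18, 15 of 15 and 14 of 15 were higher, with 0 and 4 called and medians of 0.30 and 0.37. Over all genes tested in the 19 samples, 48.7% and 50.4% were higher and 1.66% and 3.6% were called in these 2 comparisons. Genes of a list can vary together, so they are not independent observations. Trim63 and Fbxo32, the muscle ubiquitin ligases MuRF1 and atrogin-1, were at 2589 and 1865 CPM in CHEMO FO 18, against CHEMO FO medians of 236 and 312 CPM. Of 10 tested immediate early genes, Fos, Egr1 and Dusp1 were called lower in CHEMO STD against TUMOUR STD (log2 fold changes of -1.04, -0.98 and -0.88), and Fos, Dusp1 and Zfp36 were called higher in CHEMO FO against CHEMO STD (1.23, 0.59 and 0.90). Of all genes tested, 2.38% and 1.66% were called in these 2 comparisons, in either direction. The medians of the 10 genes were -0.44 and 0.44, and -0.43 and 0.46 without CHEMO FO 18, when 3 and 1 genes were called. Btg2, which is both a p53 target and an immediate early gene, was not called in either comparison.

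**Figure D4:**
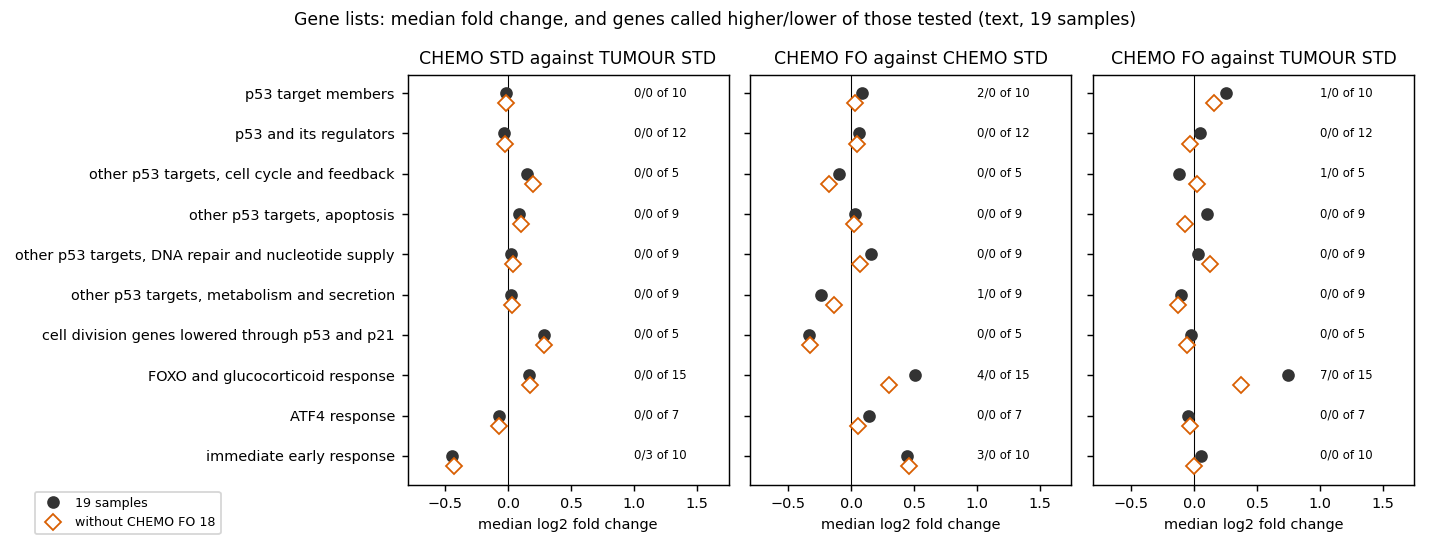
Median log2 fold change (x axis) of the p53 targets and 9 other gene lists in the 3 comparisons, from all 19 samples (filled points) and without CHEMO FO 18 (open diamonds), with the number of genes called higher and lower of those tested at the right. The 6 p53 lists above the cell division list lie between -0.24 and 0.25 in all 19 samples, and the FOXO and glucocorticoid list reaches 0.74 in CHEMO FO against TUMOUR STD and 0.37 without CHEMO FO 18.

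Markers of other cells moved between the groups beside these values. Over all genes tested in the 19 samples, 2.38% were called in CHEMO STD against TUMOUR STD. The share was 1.66% in CHEMO FO against CHEMO STD and 3.6% in CHEMO FO against TUMOUR STD. The 3 tested smooth muscle markers (Myh11, Acta2 and Tagln) were all called lower in both chemotherapy groups than in TUMOUR STD, with medians of -0.93 and -0.89 (2 of 3 in CHEMO FO without CHEMO FO 18). The summed level of the smooth muscle list ran from 133 to 215 CPM in TUMOUR STD and from 56.5 to 145 CPM in the others. Of 5 tested Schwann cell markers, 4 were called lower in CHEMO FO than in CHEMO STD (median -0.82), and 3 without CHEMO FO 18. Their summed level had nearly the same median in CHEMO STD (136 CPM) and CHEMO FO (132 CPM), with CHEMO STD 1+2 at 452 CPM and CHEMO STD 7 at 277 CPM above every CHEMO FO sample. Tendon markers had 5 of 5 values below 0 against TUMOUR STD in both chemotherapy groups, with medians of -0.51 (1 called, CHEMO STD) and -0.82 (2 called, CHEMO FO), and fibroblast markers also had 5 of 5 below 0, with medians of -0.32 (0 called) and -0.45 (1 called). Summed tendon levels were 709 and 618 CPM in TUMOUR STD 10 and 12 and 267 to 321 CPM in the rest of TUMOUR STD. Fibroblast sums were 12620 and 13315 CPM in the same samples and 2845 to 5178 CPM in the rest. CHEMO STD 1+2 had 584 and 11147 CPM for the tendon and fibroblast lists. Ptprc, which marks leukocytes, was called in both comparisons of CHEMO STD, at 1.16 against TUMOUR STD and at -1.16 for CHEMO FO against it. It was the only one called of the 2 leukocyte markers tested (10 listed), whose medians were 0.70 and -0.73. CHEMO STD 7 had the highest summed level of the list, 114 CPM. The part of these cell markers in the members' values was not tested.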

How the data were processed

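Total RNA of gastrocnemius was made into libraries with a stranded kit after ribosomal RNA removal. Per the labels and methods, the authors used CASAVA 1.9, Trim Galore 0.4.1, FastQC 0.11.4 and TopHat2 2.0.10 with Bowtie2 against Rnor 6, and Partek Flow, and deposited raw counts per gene without normalisation. The settings of read assignment, strand included, were not stated in those sources, and reads of overlapping or antisense genes may be shared. Myh4 was written rounded in 2 libraries. The 388 rows without a gene name (0.102% to 0.272% of counts) were left out. CHEMO STD libraries 1 and 2 were summed to 1 sample.

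Counts were fitted in R 4.3.3 with edgeR 4.0.16: default filter (minimum count 10, minimum total 15), TMM, all 3 groups in one quasi-likelihood fit, group as the only term, 19 samples. Calls required p under 0.05 before adjustment and 1.5-fold, the thresholds of the study's methods. Adjusted p-values are Benjamini-Hochberg over all genes tested. Levels are CPM. Exact permutation tests were two-sided on the difference of mean log2 CPM (prior count 2), which is not the edgeR fold change. Correlations used 100000 permutations within groups. Alternatives used DESeq2 1.42.0, limma 3.58.1 (voom with quality weights), other scalings and filters, and each sample left out in turn.

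The members and lists were chosen with earlier results of these data known, and Cdkn1a and Trp53inp1 are also in the gene list the study drew from these libraries for the diet comparison. Beside the members, the text names the genes of each list that were called, or at most 3 with the smallest p in CHEMO STD against TUMOUR STD where none was, and the 3 genes most correlated with Cdkn1a. Results for some genes of the lists are not reported here. The labels do not tie libraries to animals, so p-values measure the spread between these samples, which may be technical in part.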

Additional observations from a re-analysis of the deposited data

Results flagged for a closer look

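In 30 sets of values (10 members in 3 groups) the distance of the highest or lowest sample from the rest was compared with Dixon's criterion, and 6 sets met it. For normally distributed values, chance alone meets it in about 1 of 20 sets. The criterion was applied to CPM without a log transform, and the sets share samples. The 6 sets therefore cannot be read against that rate. CHEMO FO 18 was far above the other CHEMO FO samples for Cdkn1a (183 CPM, group median 21.2 CPM), Bax (14.4 CPM, median 7.10 CPM) and Trp53inp1 (52.8 CPM, median 12.8 CPM). CHEMO STD 1+2 was far above its group for Cdkn1a (32.3 CPM, median 14.2 CPM). CHEMO FO 17 was far above its group for Phlda3 (46.4 CPM, median 28.5 CPM). TUMOUR STD 9 was set apart for Sesn1 (71.3 CPM, median 67.0 CPM).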

How the results depend on the processing

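Which p53 targets were called depended on single samples and on the tool. The median of the 10 members in CHEMO STD against TUMOUR STD lay between -0.08 and 0.08 with 1 sample left out. With no filter on low counts, the number of genes called was 971, 722 and 1116 in CHEMO STD against TUMOUR STD, CHEMO FO against CHEMO STD and CHEMO FO against TUMOUR STD. DESeq2 gave 11 genes past adjusted p in the last comparison. In CHEMO FO against CHEMO STD, 1 member was called with library totals, with only the 2 groups compared in the fit and without CHEMO STD 1+2, and 0 with voom and with CHEMO FO 18 and TUMOUR STD 10 both left out, an alternative chosen after seeing the data. In CHEMO FO against TUMOUR STD, voom called 0 members (median 0.04068), and leaving out both samples gave 0 members (median 0.003779) and 201 genes. With 1 sample left out, genes called ran from 161 (without TUMOUR STD 10) to 530 (without TUMOUR STD 8), and 603 without CHEMO STD 1+2, in CHEMO STD against TUMOUR STD, from 153 to 266 in CHEMO FO against CHEMO STD, and from 273 (without CHEMO FO 18) to 584 (without TUMOUR STD 11) in CHEMO FO against TUMOUR STD. Members called ran from 0 to 1, 0 to 2 and 0 to 2 in the same order.

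Small values turned sign. With voom, Sesn2 was at -0.1098 in CHEMO STD against TUMOUR STD, and Sesn1 at -0.1004, Sesn2 at 0.03174, Aen at -0.03612 and Btg2 at -0.03558 in CHEMO FO against CHEMO STD. With CHEMO STD 1 and 2 as separate libraries, Sesn1 was at -0.02293 there. With both samples left out, Sesn1 was at -0.08228, Aen at -0.03627 and Btg2 at -0.02205 in CHEMO FO against CHEMO STD, and Mdm2 at -0.04116 and Ccng1 at -0.007293 in CHEMO FO against TUMOUR STD. Without CHEMO STD 1+2, Aen was at 0.001471 and Trp53inp1 at 0.008305 against TUMOUR STD and Aen at -0.01814 in CHEMO FO against CHEMO STD. With 1 other sample left out, CHEMO STD against TUMOUR STD ranged from -0.3499 to 0.1913 for Cdkn1a (-0.5859 without CHEMO STD 1+2), -0.1458 to 0.1413 for Sesn2, -0.1789 to 0.01689 for Aen and -0.2028 to 0.02014 for Trp53inp1. CHEMO FO against CHEMO STD ranged from -0.1182 to 0.08062 for Sesn1, -0.2424 to 0.05712 for Sesn2, -0.03166 to 0.1616 for Aen and -0.03728 to 0.1646 for Btg2. CHEMO FO against TUMOUR STD ranged from -0.006158 to 0.0885 for Mdm2, -0.04438 to 0.3441 for Ccng1 and -0.07297 to 0.0432 for Aen. Without the 2 samples farthest from the median of Cdkn1a, the correlation with it was -0.3429 for Bax, -0.003601 for Sesn2, -0.1555 for Aen, -0.3651 for Trp53inp1 and -0.06247 for Btg2. The cause of these changes was not tested. The members with the fewest counts, Bax (16 to 158 per sample) and Sesn2 (11 to 109), are limited most by depth. No paired analysis was made, because the paper assigned rats at random to the groups and the labels name no pairs.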
